A study of Homo sapiens with 12 samples.

Results

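TNRC6A, TNRC6B and TNRC6C are the human GW182 genes, taken here by name as 3 of the 15074 genes in a whole-transcriptome RNA-seq study of HCT116, a human colorectal carcinoma cell line. Each of the 3 has a row in every one of the 5 tables of group comparisons that the authors deposited. The study had 4 groups of 3 libraries, 12 in all. In FH-AGO2_5xA and FH-AGO2_WT, cells lacking AGO2 were given back tagged AGO2, either the 5xA form, in which residues of a phosphorylated cluster are changed to alanine, or the wild-type form. AGO2_KO was the knockout line without AGO2 put back, and Parental was the unedited HCT116 line. RNA was collected 48 h after 500000 cells were seeded per well, and the labels name no drug or other agent. Each group is taken here as 1 cell line with 3 replicates. The p-values therefore rest on the spread between replicates within lines, and the AGO2 genotype cannot be told apart from other differences between the lines.

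GW182 proteins are the scaffolds of microRNA silencing. They bind Argonaute proteins through tryptophans in glycine-tryptophan repeats, and their C-terminal silencing domain recruits the cytoplasmic poly(A)-binding protein together with the PAN2-PAN3 and CCR4-NOT deadenylases. The bound mRNA then loses its poly(A) tail, is translated less, and is decapped and degraded. The mRNAs of the 3 paralogues also carry microRNA seed matches of their own in their 3′ untranslated regions (UTRs).

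The sites below are shown because the 3 UTRs have them in common. Seed matches were looked for in the longest annotated 3′ UTR of each gene (GENCODE 29, GRCh38) for 25 microRNA families, on the mRNA strand only, by the 7 bases complementary to microRNA bases 2 to 8, or the match to bases 2 to 7 followed by an A. A match to bases 2 to 8 followed by an A is called an 8mer. All 3 UTRs held an 8mer for miR-26, for miR-23 and for miR-30. Mature sequences are from RefSeq, 5′ to 3′, with the seed (bases 2 to 8) in capitals.

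miR-26a-5p: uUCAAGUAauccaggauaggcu

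miR-23a-3p: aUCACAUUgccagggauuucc

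miR-30a-5p: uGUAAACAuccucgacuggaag

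The matching windows of 24 bases are on the plus strand of GRCh38, with the 8mer in capitals. The miR-26 sites come first.

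TNRC6A, miR-26, chr16:24823952-24823975: agtttgaaTACTTGAAtcatgcag

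TNRC6B, miR-26, chr22:40323471-40323494: tcttgaaaTACTTGAAtcatgaac

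TNRC6C, miR-26, chr17:78105481-78105504: catgcaaaTACTTGAAtccagcag

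A miR-23 8mer followed each of them within the same stretch of UTR.

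TNRC6A, miR-23, chr16:24823979-24824002: aatattatAATGTGAAaaggtatc

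TNRC6B, miR-23, chr22:40323503-40323526: agaaagacAATGTGAAgcaagtac

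TNRC6C, miR-23, chr17:78105508-78105531: aatagtgaAATGTGAAcactttct

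The first miR-30 8mer of each UTR lay further 3′.

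TNRC6A, miR-30, chr16:24824545-24824568: aaccttctTGTTTACAgatttttt

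TNRC6B, miR-30, chr22:40325917-40325940: gcccctctTGTTTACAagacataa

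TNRC6C, miR-30, chr17:78106186-78106209: ctcccaccTGTTTACAgacctttt

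In TNRC6A the miR-26 8mer began at base 153 of the UTR and the miR-23 8mer at base 180, a distance of 27 bases from start to start. In TNRC6C the distance was also 27 bases, with starts at bases 644 and 671. In TNRC6B it was 32 bases, with starts at bases 238 and 270. Not printed above were miR-30 8mers at base 1552 in TNRC6A and base 11396 in TNRC6B. TNRC6B also held a miR-23 8mer at base 8364 and a miR-26 8mer at base 11797, outside the pair. A miR-23 8mer starting within 50 bases after a miR-26 8mer occurred in 7 of the 11737 measured genes with an annotated 3′ UTR (0.0596%). The 3 GW182 genes are among these 7. Distances were taken from start to start. The order counted was that seen in the GW182 genes, and the reverse order was not counted. Singly, a miR-26 8mer was in 6.20% of those UTRs, a miR-23 8mer in 10.2% and a miR-30 8mer in 9.26%, and 57 UTRs (0.486%) held all of them. Among UTRs within 25% of the member's length, the share with all of them was 0.234% for TNRC6A, 6.87% for TNRC6B and 0.960% for TNRC6C. The pairing was looked for after the sites had been seen, the genes are paralogues and so not independent of each other, and a seed match is a description of sequence: microRNA levels and binding were not analysed here.

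TNRC6B has by far the longest 3′ UTR of the family, 12567 bases, longer than 99.5% of the UTRs searched. It held 61 seed matches, 19 of them 8mers, for 20 of the 25 families. The TNRC6C UTR of 3990 bases held 18 matches, 4 of them 8mers, and the TNRC6A UTR of 2420 bases held 17 matches, 5 of them 8mers, each for 11 families. Matches were counted by family, so bases shared between families count for each. An example is base 1064 of the TNRC6A UTR, for miR-182 and miR-96. Per kilobase, TNRC6A had 7.02 matches, TNRC6B 4.85 and TNRC6C 4.51, against medians of 4.03, 3.78 and 4.08 in UTRs within 25% of the length of each. TNRC6A was thus the densest of the family, and TNRC6B had the most sites through its length. For 3 families none of the UTRs held a match: miR-24, with a match in 33.6% of all UTRs searched and in 90.8% of those near the length of the TNRC6B UTR, the family of miR-200b, miR-200c and miR-429 (26.1% and 79.4%) and let-7 (18.3% and 71.8%).

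**Figure D1:**
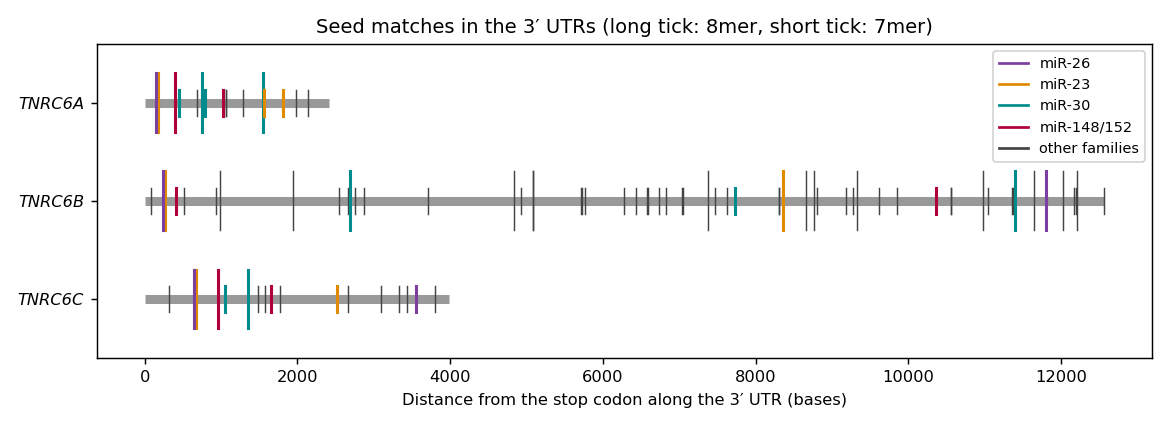
Seed matches along the 3′ UTRs of the GW182 genes, by distance in bases from the stop codon. Long ticks are 8mers and short ticks 7mers. A miR-26 and a miR-23 8mer stand side by side near the 5′ end in each UTR, 27 bases apart in TNRC6A and TNRC6C and 32 in TNRC6B.

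Each GW182 mRNA had its lowest fitted level in Parental cells, and TNRC6A and TNRC6B were more abundant than TNRC6C in every group. Levels per library were not analysed here, since the tables give 1 fold change per gene and comparison. The fitted level of a group was worked out from the deposited mean expression and fold changes, in reads scaled to library size (CPM), and takes the 4 groups to weigh equally in that mean. In bulk RNA, fewer cells expressing a gene and less RNA per cell cannot be told apart.

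TNRC6A (ENSG00000090905, chromosome 16, 24610209 to 24827632, plus strand) had a fitted level of 162 CPM (95% interval 150 to 175) in FH-AGO2_5xA cells, 175 CPM (162 to 189) in FH-AGO2_WT cells and 185 CPM (171 to 200) in AGO2_KO cells, against 151 CPM (140 to 163) in Parental cells. The order of the groups was AGO2_KO, FH-AGO2_WT, FH-AGO2_5xA, Parental, and no neighbouring pair in that order passed the test. TNRC6B (ENSG00000100354, chromosome 22, 40044817 to 40335808, plus strand) had 180 CPM (167 to 194) in FH-AGO2_5xA cells, 168 CPM (156 to 181) in FH-AGO2_WT cells and 183 CPM (170 to 197) in AGO2_KO cells, against 131 CPM (122 to 141) in Parental cells. For this gene the parental level stood apart, and no difference among the other 3 groups passed the test. TNRC6C (ENSG00000078687, chromosome 17, 77959240 to 78108835, plus strand) had 35.5 CPM (31.7 to 39.8) in FH-AGO2_5xA cells, 36.5 CPM (32.5 to 41.1) in FH-AGO2_WT cells and 30.8 CPM (27.5 to 34.4) in AGO2_KO cells, against 22.8 CPM (20.3 to 25.6) in Parental cells. Here too the parental interval overlapped none of the others.

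**Figure D2:**
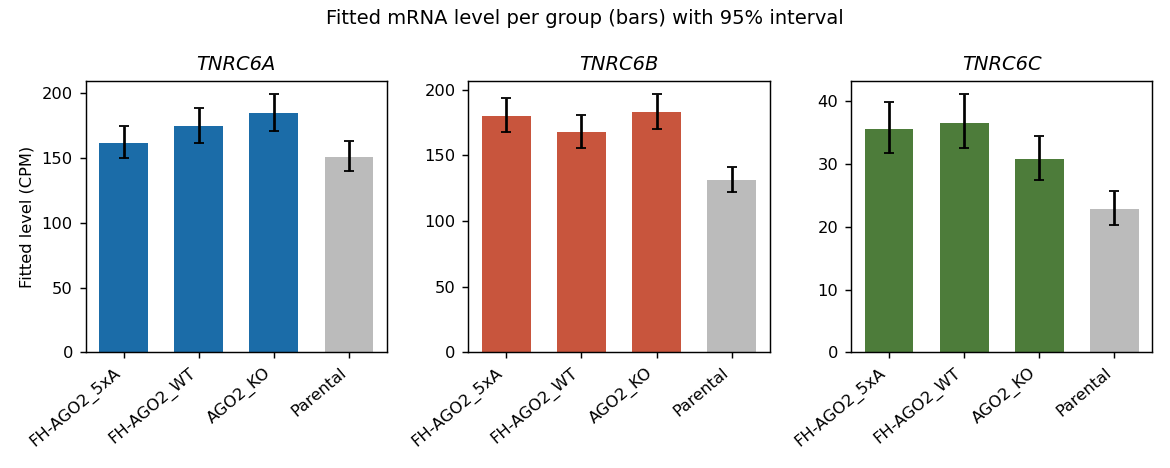
Fitted mRNA levels in CPM for each GW182 gene and group; bars are fitted group values and lines their 95% intervals. Parental cells are lowest in each panel, at 151, 131 and 22.8 CPM.

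To compare levels between genes, CPM was divided by the annotated exonic length, which is 12924 bases for TNRC6A, 19998 for TNRC6B and 11111 for TNRC6C. This takes all annotated exons together. Which isoforms the cells express was not analysed here, so the order and shares depend on that length. In CPM alone, TNRC6B was above TNRC6A in FH-AGO2_5xA cells (180 and 162 CPM). On that scale TNRC6A was the most abundant in every group, with 12.5 CPM per kb in FH-AGO2_5xA, 13.5 in FH-AGO2_WT, 14.3 in AGO2_KO and 11.7 in Parental cells. TNRC6B followed, with 9.01 CPM per kb in FH-AGO2_5xA, 8.39 in FH-AGO2_WT, 9.15 in AGO2_KO and 6.56 in Parental cells. TNRC6C was lowest, with 3.20 CPM per kb in FH-AGO2_5xA, 3.29 in FH-AGO2_WT, 2.77 in AGO2_KO and 2.05 in Parental cells. As a share of the 3 genes' sum per kb, TNRC6A made up 50.6%, 53.7%, 54.5% and 57.6% in FH-AGO2_5xA, FH-AGO2_WT, AGO2_KO and Parental cells. TNRC6C made up 12.9%, 13.0%, 10.6% and 10.1% in the same order. The summed level per kb was 1.22 times the parental sum in FH-AGO2_5xA, 1.24 times in FH-AGO2_WT and 1.29 times in AGO2_KO cells. The family's total was thus higher than in Parental cells in the other 3 lines, and the part from TNRC6C was largest in the reconstituted ones; these shares and sums carry no test.

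The first comparison asks how the GW182 mRNAs stood without AGO2. All 3 rose in AGO2_KO cells relative to Parental cells, TNRC6A to 185 CPM against 151 CPM, TNRC6B to 183 CPM against 131 CPM and TNRC6C to 30.8 CPM against 22.8 CPM. Changes are given from here on as log2 fold changes. By the authors' deposited table, that of TNRC6A was 0.29 ± 0.08 (standard error, 3 libraries per group, adjusted p = 0.00110 by edgeR's likelihood ratio test with Benjamini-Hochberg adjustment over all genes). For TNRC6B the authors' deposited table gave 0.48 ± 0.08 (adjusted p = 2.9e-09), the smallest p of the 3. For TNRC6C the authors' deposited table gave 0.43 ± 0.12 (adjusted p = 0.00120). A gene is called here where the adjusted p is under 0.05. In this comparison 44.4% of all genes were called in either direction and 23.2% were called higher, so a call by itself is common. The 3 fold changes lay at the 76.9th, 86.6th and 84.5th percentiles of all genes for TNRC6A, TNRC6B and TNRC6C, and their median was 0.43 against -0.01 over all genes. The 95% intervals of the differences between members all included 0 (TNRC6B minus TNRC6A 0.19, -0.03 to 0.41), so no order among the 3 can be given.

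**Figure D3:**
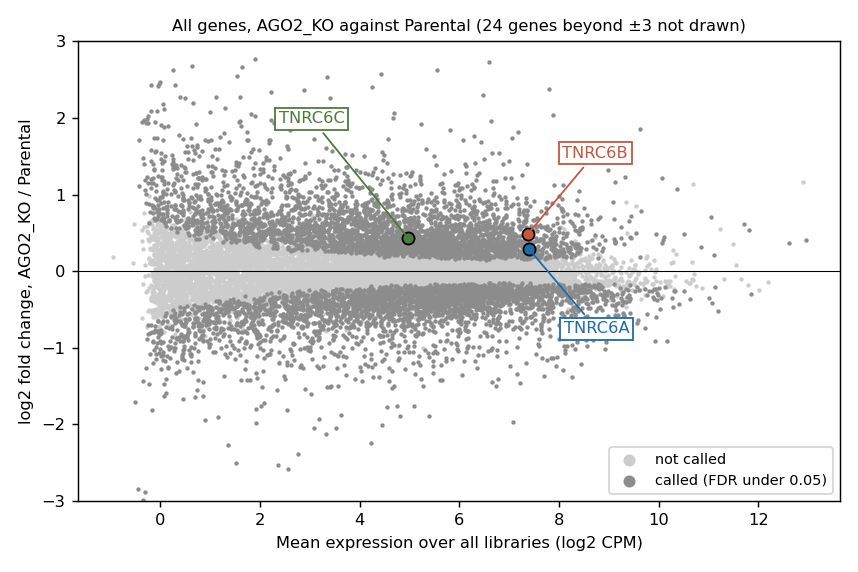
Log2 fold change of AGO2_KO over Parental against mean expression (log2 CPM) for all genes, with called genes in dark grey. The 3 GW182 genes are at 0.29, 0.48 and 0.43, above 0 and inside the range of the other called genes; 24 genes beyond 3 in either direction are not drawn.

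None of the 3 genes was called between the reconstituted lines and the knockout. Between FH-AGO2_WT and AGO2_KO cells, where 10.1% of all genes were called (4.21% higher and 5.85% lower), 0 of the 3 were called by edgeR, and 1 had an unadjusted p under 0.05. That gene was TNRC6C, whose log2 fold change in the authors' deposited table was 0.25 ± 0.12 (p = 0.0385, adjusted p = 0.177), on the side of a higher level in FH-AGO2_WT cells. TNRC6A had -0.08 ± 0.08 (adjusted p = 0.596) and TNRC6B -0.13 ± 0.08 (adjusted p = 0.316) in the authors' deposited table. The 95% intervals, -0.24 to 0.08 for TNRC6A and -0.27 to 0.02 for TNRC6B, include 0, and that of TNRC6C, not adjusted, was 0.01 to 0.49.

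The 5xA form gave the same count. Between FH-AGO2_5xA and AGO2_KO cells, where 11.3% of all genes were called (5.04% higher and 6.24% lower), 0 of the 3 were called by edgeR, and 1 had an unadjusted p under 0.05. This was TNRC6A, with -0.19 ± 0.08 in the authors' deposited table (p = 0.0156, adjusted p = 0.0969). TNRC6B had -0.02 ± 0.08 (adjusted p = 0.889) and TNRC6C 0.21 ± 0.12 (adjusted p = 0.263) in the authors' deposited table. Both reconstitution comparisons share the AGO2_KO libraries, which are also the numerator of the knockout comparison, so the 3 sets of values are not independent.

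Set against Parental cells, the reconstituted lines still had more GW182 mRNA, with 1 exception. In FH-AGO2_WT cells all 3 genes were called higher, where 18.3% of all genes were called higher, 16.1% lower and 34.4% in either direction. The authors' deposited table gave 0.68 ± 0.12 for TNRC6C (adjusted p = 3.42e-07), a 1.60-fold level. It gave 0.36 ± 0.08 for TNRC6B (adjusted p = 3.38e-05) and 0.21 ± 0.08 for TNRC6A (adjusted p = 0.0305), again by the authors' deposited table; the TNRC6A call was lost under an F distribution (adjusted p = 0.103). In FH-AGO2_5xA cells 2 of the 3 were called higher, where 22.9% of all genes were called higher, 20.9% lower and 43.8% in either direction. TNRC6C had 0.64 ± 0.12 (adjusted p = 7.43e-07) and TNRC6B 0.46 ± 0.08 (adjusted p = 2.04e-08) in the authors' deposited table. TNRC6A, the exception, had 0.10 ± 0.08 (adjusted p = 0.334) in the authors' deposited table. The 3 comparisons against Parental cells share the parental libraries.

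The wild-type and 5xA forms were compared through a difference derived from the deposited fold changes, and no GW182 gene passed the test. TNRC6A differed by -0.11 on the log2 scale (95% interval -0.27 to 0.05, adjusted p = 0.462 by a chi-square test on the derived difference). TNRC6B differed by 0.10 (-0.05 to 0.25, adjusted p = 0.490) and TNRC6C by -0.04 (-0.28 to 0.20, adjusted p = 0.900). In this comparison 4.11% of genes were called (1.98% higher and 2.13% lower), 0 of the 3 members were, and 0 had an unadjusted p under 0.05. The intervals allow differences of up to about the size of the knockout change of TNRC6A, so they do not show that the lines were alike.

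**Figure D4:**
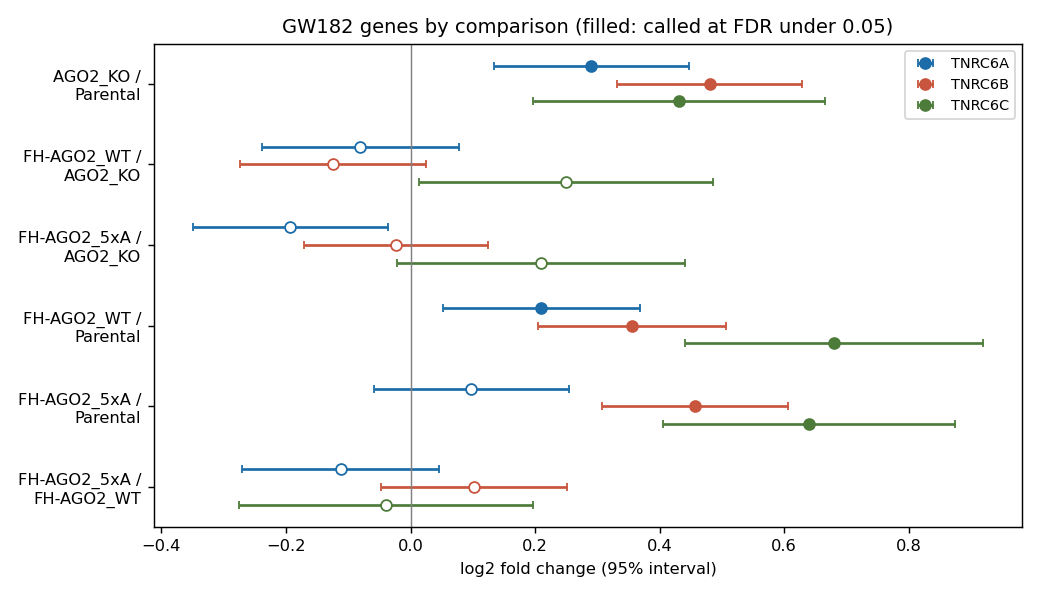
Log2 fold changes of the GW182 genes with 95% intervals in the 6 comparisons; filled points were called. The 3 genes lie together in AGO2_KO over Parental (0.29 to 0.48), and TNRC6C stands to the right of TNRC6A in FH-AGO2_WT over Parental (0.68 and 0.21) and FH-AGO2_5xA over Parental (0.64 and 0.10).

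Intervals of the differences between members left out 0 only in comparisons of a reconstituted line with AGO2_KO or Parental cells. Most of the comparisons were of that kind. FH-AGO2_5xA over FH-AGO2_WT had no such difference, nor had AGO2_KO over Parental. Differences between members were computed for 3 pairs in 6 comparisons, 18 in all, with intervals that take the errors of the genes as independent and are not adjusted, and 7 of the 18 left out 0. TNRC6C exceeded TNRC6A by 0.47 (0.18 to 0.76) in FH-AGO2_WT over Parental and by 0.54 (0.26 to 0.82) in FH-AGO2_5xA over Parental. It exceeded TNRC6B by 0.32 (0.04 to 0.61) in the first of these, while in the second the difference of 0.18 (-0.09 to 0.46) included 0. TNRC6B exceeded TNRC6A by 0.36 (0.14 to 0.58) in FH-AGO2_5xA over Parental. Against AGO2_KO cells, TNRC6C exceeded TNRC6A by 0.33 (0.05 to 0.61) in FH-AGO2_WT and by 0.40 (0.12 to 0.68) in FH-AGO2_5xA cells, and it exceeded TNRC6B by 0.37 (0.09 to 0.65) in FH-AGO2_WT cells. These intervals reuse the same libraries.

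Reads of TNRC6C may be mixed with those of an antisense gene. TNRC6C-AS1 (ENSG00000204282, chromosome 17, 78107398 to 78111799, minus strand) overlaps the last 1438 bases of TNRC6C, and the sources used here do not say whether counting used the strand. TNRC6C-AS1 had a fitted 2.31 CPM in FH-AGO2_5xA, 1.84 in FH-AGO2_WT, 2.50 in AGO2_KO and 1.43 in Parental cells, all far under the TNRC6C level of the same group. Its log2 fold change in the authors' deposited table was 0.81 ± 0.19 (adjusted p = 8.57e-05) in AGO2_KO over Parental and 0.69 ± 0.19 (adjusted p = 0.00150) in FH-AGO2_5xA over Parental. The antisense gene did not pass in FH-AGO2_WT over Parental, at 0.37 ± 0.22 (adjusted p = 0.188) in the authors' deposited table, where TNRC6C had its highest fold change. The part of the overlap in the TNRC6C values was not tested, and the printed seed matches lie outside it.

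Of the 6 genes beside the members, 1 was called higher and 1 lower in AGO2_KO over Parental, against 23.2% and 21.2% of all genes. RBBP6, a ubiquitin ligase gene on the left of TNRC6A, had -0.05 ± 0.10 in AGO2_KO over Parental in the authors' deposited table, and ARHGAP17, on its right, rose by 0.44 ± 0.13 (adjusted p = 0.00200). FAM83F, on the left of TNRC6B, had 0.07 ± 0.08 and ADSL, the adenylosuccinate lyase gene on its right, had -0.16 ± 0.07 (adjusted p = 0.0455, lower) in the authors' deposited table. SEPTIN9, a septin gene on the left of TNRC6C, had 0.05 ± 0.13 and TMC6, on its right, had 0.15 ± 0.21 in the authors' deposited table. Over all measured genes within 1 Mb, the median log2 fold change in AGO2_KO over Parental was -0.06 around TNRC6A (8 genes), -0.17 around TNRC6B (24 genes) and 0.15 around TNRC6C (24 genes). Around TNRC6C the median was 0.36 in FH-AGO2_5xA over Parental, with 10 of 24 genes called higher (22.9% of all genes were) and 2 lower, and 0.10 in FH-AGO2_WT over Parental. Within 2 Mb (51 genes) the medians around TNRC6C were 0.10 in FH-AGO2_5xA and 0.08 in AGO2_KO over Parental, and within 5 Mb (187 genes) they were 0.05 and -0.02. The part of the chromosome 17 region in the TNRC6C values was not tested.

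The partners of GW182 were read from a list of 46 genes in 6 roles, of which 44 were measured; LSM14A and TRIM71 were not analysed here. In AGO2_KO over Parental 13 were called higher (29.5%) and 5 lower (11.4%), against 23.2% and 21.2% of all genes, with a median of 0.10. In FH-AGO2_WT over AGO2_KO 1 was higher (2.27%) and 4 lower (9.09%), against 4.21% and 5.85% of all genes. In FH-AGO2_5xA over AGO2_KO 2 were higher (4.55%) and 3 lower (6.82%), against 5.04% and 6.24%. In FH-AGO2_5xA over Parental 17 were higher (38.6%) and 4 lower (9.09%), against 22.9% and 20.9%. In FH-AGO2_WT over Parental 14 were higher (31.8%) and 4 lower (9.09%), against 18.3% and 16.1%. No test of the list was made.

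All 4 Argonautes, which hold the microRNA and bind GW182, were called in the knockout comparison. There 44.4% of all genes were called, 23.2% higher and 21.2% lower. AGO2, the targeted gene, had -0.35 ± 0.07 in AGO2_KO over Parental (adjusted p = 1.42e-06) in the authors' deposited table, and 0.75 ± 0.07 in FH-AGO2_WT and 0.73 ± 0.07 in FH-AGO2_5xA over AGO2_KO. Its mRNA was reduced in the knockout but not lost; RNA level need not follow the protein. AGO1 rose by 0.26 ± 0.08, AGO3 by 0.41 ± 0.07 and AGO4 by 0.59 ± 0.11 in AGO2_KO over Parental in the authors' deposited table (adjusted p = 0.00292, 3.49e-08 and 2.42e-07). AGO1 and AGO4 fell again in FH-AGO2_WT over AGO2_KO, at -0.27 ± 0.08 and -0.48 ± 0.11 (adjusted p = 0.0108 and 0.000645), and in FH-AGO2_5xA over AGO2_KO, at -0.27 ± 0.08 and -0.44 ± 0.11 (adjusted p = 0.00956 and 0.00104), in the authors' deposited table. AGO3 had -0.10 ± 0.07 and -0.06 ± 0.07 in FH-AGO2_WT and FH-AGO2_5xA over AGO2_KO in the authors' deposited table, neither called. AGO3 and the GW182 genes were thus called higher in the knockout and not called on reconstitution, while AGO1 and AGO4 were called lower. Few genes were called lower there, 5.85% of all genes in FH-AGO2_WT and 6.24% in FH-AGO2_5xA over AGO2_KO. Nor did the GW182 genes share 1 direction, with TNRC6A at -0.19 and TNRC6C at 0.21 in FH-AGO2_5xA over AGO2_KO. The difference of AGO3 and the GW182 genes from AGO1 and AGO4 was not tested.

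Of the deadenylases that GW182 recruits, PAN2, the catalytic subunit, fell in AGO2_KO over Parental by 0.63 ± 0.10 (adjusted p = 1.63e-08), and PAN3, its adaptor, rose by 0.36 ± 0.09 (adjusted p = 0.000205), in the authors' deposited table. The CCR4-NOT role takes in associated genes such as TOB1 as well as subunits. Of its 13 genes 4 were higher (30.8%) and 2 lower (15.4%) in AGO2_KO over Parental, near the 23.2% and 21.2% of all genes. TOB1, which bridges CCR4-NOT to the poly(A)-binding protein, rose by 0.87 ± 0.12 (adjusted p = 4.5e-12), CNOT4, a ubiquitin ligase, by 0.70 ± 0.12 (adjusted p = 2.57e-08), and CNOT6, a deadenylase subunit, by 0.51 ± 0.10 (adjusted p = 4.75e-06) in the authors' deposited table. CNOT9, a subunit that binds GW182 tryptophans, fell by 0.33 ± 0.06 (adjusted p = 2.36e-06) there. CNOT6 also fell in FH-AGO2_WT over AGO2_KO, at -0.43 ± 0.10 (adjusted p = 0.00160) in the authors' deposited table. It was the only gene of the 13 in this role called there (7.69%), where 10.1% of all genes were.

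Of the 4 poly(A)-binding protein genes, 0 were called in AGO2_KO over Parental, where 44.4% of all genes were, and all 4 were higher in FH-AGO2_WT and in FH-AGO2_5xA over Parental, where 18.3% and 22.9% of all genes were. Directly over AGO2_KO, 0 of the 4 were called in FH-AGO2_WT cells, where 10.1% of all genes were. In FH-AGO2_5xA over AGO2_KO 1 was, where 11.3% of all genes were. It was PABPC1L, with an authors' deposited value of 0.66 ± 0.11 (adjusted p = 4.34e-07 by edgeR's likelihood ratio test). The differences between these counts were not tested. PABPC1, the main cytoplasmic form, had 0.27 ± 0.14 in AGO2_KO over Parental (adjusted p = 0.117) and 0.42 ± 0.14 in FH-AGO2_WT over Parental (adjusted p = 0.0133) in the authors' deposited table. PABPC1L, a paralogue, was the 1 pathway gene of 44 called between the reconstituted lines (2.27%), where 4.11% of all genes were. It had 0.36 ± 0.11 in FH-AGO2_5xA over FH-AGO2_WT (adjusted p = 0.0415 by the chi-square test on the derived difference). The call was lost at a threshold of 0.01. The poly(A)-binding paralogues are alike in sequence, so reads may be shared among them. In decapping and repression 3 of 10 genes rose in AGO2_KO over Parental, near the 23.2% of all genes called higher. PATL1, a decapping activator, rose by 0.64 ± 0.15, XRN1, the 5′ to 3′ exonuclease, by 0.48 ± 0.08, and DCP2, the decapping enzyme, by 0.30 ± 0.11 (adjusted p = 0.000175, 2.31e-08 and 0.0195) in the authors' deposited table. DCP2 then fell in FH-AGO2_WT and FH-AGO2_5xA over AGO2_KO, by 0.41 ± 0.11 and 0.46 ± 0.11 (adjusted p = 0.00750 and 0.00123) in the authors' deposited table. Of 11 other cofactors measured 2 rose (18.2%) and 1 fell (9.09%) in AGO2_KO over Parental, shares below the 23.2% and 21.2% of all genes. They were MOV10, an RNA helicase, by 0.28 ± 0.09, FAM120A, an Argonaute-associated RNA-binding protein, by 0.26 ± 0.07, and HSP90AA1, a chaperone that helps load Argonaute, at -0.30 ± 0.12 (adjusted p = 0.00637, 0.00120 and 0.0259) in the authors' deposited table.

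**Figure D5:**
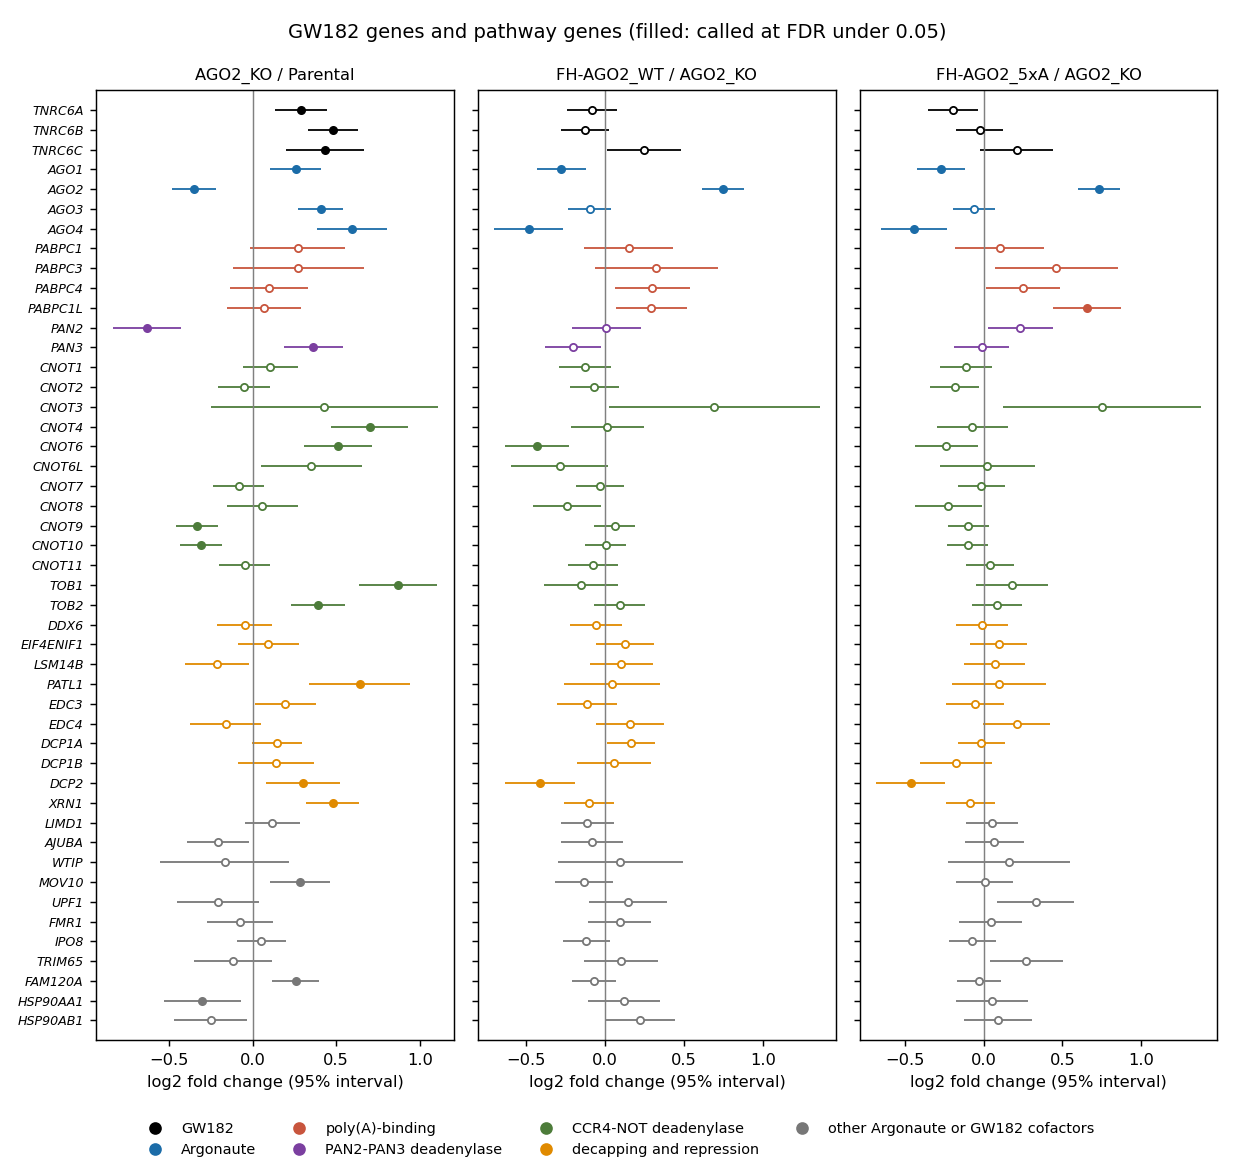
Log2 fold changes with 95% intervals of the GW182 genes (top 3 rows) and the 44 measured pathway genes by role, for AGO2_KO over Parental, FH-AGO2_WT over AGO2_KO and FH-AGO2_5xA over AGO2_KO; filled points were called. AGO1, AGO4 and DCP2 are filled to the right of 0 in the first panel and to the left in the others, while no GW182 gene is filled outside the first.

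The genes most like each member over the 3 fold changes against Parental cells were found by Euclidean distance among 14767 genes with a mean of at least 1 CPM. For TNRC6A they were PIAS2, PKM and ZNF674-AS1 (distances 0.030, 0.034 and 0.034), for TNRC6B MCC, GK5 and TBX18 (0.030, 0.030 and 0.036), and for TNRC6C BORCS8, FOXD1 and MIRLET7IHG (0.010, 0.067 and 0.068). The members were not each other's nearest genes. TNRC6B ranked 893 by distance from TNRC6C, and TNRC6A ranked 3620.

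As a check on the cell type, 6 of 10 colorectal epithelial markers were measured. Their summed fitted level was 2167 CPM in FH-AGO2_5xA, 2017 in FH-AGO2_WT, 2303 in AGO2_KO and 2828 in Parental cells. VIL1, CDX1, LGALS4 and CDH17 were not among the measured genes, so a missing marker does not by itself tell cell types apart here. Of 6 blood and 5 endothelial markers 0 were measured, and of 7 fibroblast markers only COL1A1 was, at 1.83 to 4.99 CPM. The epithelial sum was highest in Parental cells, where the GW182 levels were lowest, and its part in the results was not tested.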

How the data were processed

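Stranded, ribosomal-RNA-depleted total RNA libraries were sequenced on an Illumina instrument, per the labels' protocols. Per the submitters' processing notes, the tools were edgeR 3.8.6, featureCounts 1.4.6, TopHat2 2.0.12 and Cufflinks 2.2.1, with the hg38 build. These sources do not state the annotation, how rarely read genes were filtered, how libraries were normalized or whether counting used the strand. Per the file headers, the authors deposited for each comparison each gene's log2 fold change and mean log2 CPM, the score of a likelihood ratio test, its p-value and the adjusted value, over 15074 genes. Tables of counts per library were not analysed here, so depth per library is unknown, and the precision is that of the standard errors.

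From these values the standard error was computed as the fold change divided by the square root of the score, and its 95% interval as normal. Group variances were solved by least squares from the 5 squared errors, which gave the FH-AGO2_5xA minus FH-AGO2_WT difference and a chi-square test with 1 degree of freedom, adjusted over 15072 genes (2 had no value). The script was tested on simulated data. Gene names came from a symbol table (14974 genes matched) and GENCODE 29 (15029). Of 26 microRNA families listed, 25 matched in RefSeq; miR-130a-3p was not searched. Computation used Python 3.11.15, numpy 2.4.6, pandas 2.3.3 and scipy 1.17.1.

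The members and lists were chosen with earlier results of these data known. Genes were named by rule: the members, measured genes overlapping them, AGO1 to AGO4, up to 4 genes per role with the smallest p in AGO2_KO over Parental, the 3 nearest patterns per member, and the measured neighbour on each side. The alternatives were a stricter threshold, a filter of 1 CPM, centring on the median, an F distribution and other variance sums.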

Additional observations from a re-analysis of the deposited data

How the results depend on the processing

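Of 78 alternative fold change results for the members, 76 kept their direction and their side of the threshold, and none changed direction. Only centring on the median altered the fold changes themselves, so under the other alternatives the direction was fixed in advance. A stricter threshold could likewise not add a call. The call of TNRC6A in FH-AGO2_WT over Parental (log2 fold change 0.21) was lost under an F distribution with 1 and 8 degrees of freedom (adjusted p = 0.103) and at a threshold of 0.01 (adjusted p = 0.0305). The members called in that comparison were then 2, against 3. At a threshold of 0.01 the pathway genes called numbered 0 in FH-AGO2_5xA over FH-AGO2_WT, against 1, 17 in FH-AGO2_5xA over Parental, against 21, 14 in FH-AGO2_WT over Parental, against 18, 4 in FH-AGO2_WT over AGO2_KO, against 5, and 16 in AGO2_KO over Parental, against 18; a stricter threshold can only lower a count. The other 31 of 38 alternative counts did not change. Counts of pathway genes were recomputed only at the threshold of 0.01 and with the filter of 1 CPM. Pathway calls were not tried under the F distribution, centring or other variance sums. Over all alternatives, the adjusted p in AGO2_KO over Parental ran over 0.000589 to 0.0263 for TNRC6A, 9.15e-10 to 0.00279 for TNRC6B and 0.000802 to 0.0270 for TNRC6C. No paired analysis was possible because the tables carry no values per library. For the same reason no library could be left out in turn, and no outlying replicate can be seen. Precision is limited by standard errors of 0.08 for TNRC6A and TNRC6B and 0.12 for TNRC6C.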

Other observations

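A miR-23 8mer starting within 50 bases after a miR-26 8mer also occurred in the 3′ UTRs of MARK1, ZIC5, CCDC50 and PALM3. These 4 genes were named after their values were seen. Of all genes, 23.2% were called higher and 21.2% lower in AGO2_KO over Parental. In FH-AGO2_WT and FH-AGO2_5xA over AGO2_KO, 10.1% and 11.3% of all genes were called. A link between the pair of sites and the changes was not tested. In AGO2_KO over Parental, by the authors' deposited table, CCDC50 rose by 0.93 ± 0.07 (adjusted p = 2.83e-35) and ZIC5 by 0.52 ± 0.10 (adjusted p = 1.54e-06), both by edgeR's likelihood ratio test. MARK1 had -0.02 ± 0.11 (adjusted p = 0.881) and PALM3 -0.12 ± 0.25 (adjusted p = 0.738) in the authors' deposited table. CCDC50 fell in FH-AGO2_5xA over AGO2_KO by 0.26 (adjusted p = 0.00530) and in FH-AGO2_WT over AGO2_KO by 0.25 (adjusted p = 0.0132) in the authors' deposited table, unlike the GW182 genes, none of which was called in either comparison; the difference from the GW182 genes was not tested. PALM3 moved the other way, higher in FH-AGO2_WT over AGO2_KO by 0.91 (adjusted p = 0.00873), with 0.41 in FH-AGO2_5xA over AGO2_KO (adjusted p = 0.327), in the authors' deposited table. ZIC5 and MARK1 were called in neither.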
